A study of Homo sapiens with 16 samples.

Results

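The BCL2 family examined here comprises 10 genes that set the mitochondrial threshold for apoptosis: the anti-apoptotic genes BCL2, BCL2L1 and MCL1, the BH3-only genes BCL2L11, BMF, BBC3, PMAIP1 and BID, and the effectors BAX and BAK1. They were taken by symbol from the 23354 genes of the RNA-seq count table. All 10 were present, and all 10 passed the filter on low counts that left 14215 genes for testing. The family was measured in 2 human multiple myeloma cell lines, the glucocorticoid-sensitive MM1S and the glucocorticoid-resistant MM1R. The labels name no engineered allele in either line. Cells of each line received vehicle, 0.1 μM TAK-981 (an inhibitor of the SUMO-activating enzyme), 1 μM dexamethasone (Dex) or TAK-981 and Dex together (combo) for 48 h, and each of these 8 groups had 2 libraries of total RNA depleted of ribosomal RNA. The labels do not say whether the 2 libraries of a group came from separate cultures. The p-values therefore rest only on the spread between libraries of a group, which may be technical. That spread was estimated over all 8 groups together. Each line stands for resistance or sensitivity as a single cell line.

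BAX and BAK1 oligomerise in the outer mitochondrial membrane and release cytochrome c, which starts the caspase cascade. The anti-apoptotic proteins hold BAX and BAK1 in check, and BH3-only proteins free or directly activate them by binding into the same groove. Myeloma cells are known for their reliance on MCL1, and glucocorticoids are known to raise BIM, the product of BCL2L11, in lymphoid cells. The values below are mRNA levels counted per gene. They do not separate splice forms, such as the long and short forms of MCL1, BCL-XL and BCL-XS from BCL2L1, or the BIM forms, and they do not report protein.

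The count table places the genes on hg19 as follows, each as a whole gene span of exons and introns. The anti-apoptotic BCL2 lies at chr18:60790579-60986657 and BCL2L1, which encodes BCL-XL, at chr20:30252261-30310656, both on the minus strand, and MCL1 at chr1:150547027-150552214, minus strand. Of the BH3-only genes, BCL2L11 lies at chr2:111878491-111926022 on the plus strand, BMF, whose product binds the dynein light chain, at chr15:40380091-40401085 on the minus strand, and BBC3, which encodes PUMA, at chr19:47724079-47736023 on the minus strand. PMAIP1, which encodes NOXA, lies at chr18:57567192-57571538, plus strand, and BID, which links death receptors to mitochondria, at chr22:18216906-18257431, minus strand. The effectors BAX and BAK1 lie at chr19:49458117-49465055, plus strand, and chr6:33540323-33548070, minus strand. MCL1, BCL2L11, BBC3, BID and BAX overlap other entries of the table. No overlapping entry had more than 52 counts in any library, against up to 22144 for MCL1. For the less deeply counted BBC3, the overlapping MIR3190 and MIR3191 reached 25 and 20 counts, against up to 536 for BBC3. These counts do not measure any reads that a member lost to an overlap.

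Promoter windows of 300 bases (250 before and 50 after a transcript start, RefSeq, GRCh38.p14) were found for 9 of the 10 genes, in 15 entries, and none for MCL1. Windows are printed here for the 4 genes whose response to Dex differed between the lines (values below), so that the letters around their starts can be read beside the counts. Capitals mark exact matches on either strand to AGAACA (a hexamer that the glucocorticoid receptor binds), CACGTG (an E-box), GTAAACA (a forkhead motif) or CCAAT (the CCAAT box, ATTGG on the other strand).
BMF: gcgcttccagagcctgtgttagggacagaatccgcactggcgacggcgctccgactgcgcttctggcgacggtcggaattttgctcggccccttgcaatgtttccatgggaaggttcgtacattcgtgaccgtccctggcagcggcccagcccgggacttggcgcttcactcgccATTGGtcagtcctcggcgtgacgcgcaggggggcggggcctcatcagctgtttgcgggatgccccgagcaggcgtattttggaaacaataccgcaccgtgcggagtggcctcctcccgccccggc
BCL2L11: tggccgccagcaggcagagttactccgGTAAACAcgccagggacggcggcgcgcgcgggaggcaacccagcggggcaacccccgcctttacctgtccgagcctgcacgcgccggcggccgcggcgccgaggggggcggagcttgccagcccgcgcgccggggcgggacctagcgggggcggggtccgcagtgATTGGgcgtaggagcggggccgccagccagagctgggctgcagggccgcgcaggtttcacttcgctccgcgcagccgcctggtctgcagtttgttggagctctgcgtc
BBC3: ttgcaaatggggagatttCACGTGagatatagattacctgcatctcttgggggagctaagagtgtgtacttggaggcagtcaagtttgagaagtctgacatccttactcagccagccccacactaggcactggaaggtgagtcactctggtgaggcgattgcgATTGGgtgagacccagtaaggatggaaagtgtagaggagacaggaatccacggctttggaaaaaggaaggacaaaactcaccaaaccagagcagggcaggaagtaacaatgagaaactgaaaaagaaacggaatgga
BCL2L1: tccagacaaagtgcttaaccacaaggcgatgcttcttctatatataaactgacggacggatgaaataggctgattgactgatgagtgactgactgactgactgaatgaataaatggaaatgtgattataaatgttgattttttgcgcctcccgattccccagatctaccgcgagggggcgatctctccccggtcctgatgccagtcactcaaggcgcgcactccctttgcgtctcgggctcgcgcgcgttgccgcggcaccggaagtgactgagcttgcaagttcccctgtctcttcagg
The windows are at chr15:40108830-40109129 (minus strand) for BMF, chr2:111120664-111120963 (plus strand) for BCL2L11, chr19:47232618-47232917 (minus strand) for BBC3 and chr20:31723914-31724213 (minus strand) for BCL2L1, and for BMF and BCL2L1 the entry printed is the earliest listed of 2. The BCL2L11 window held 1 forkhead match and 1 CCAAT box, BMF 1 CCAAT box, BBC3 1 E-box and 1 CCAAT box, and BCL2L1 none of these letters. The BAX window, not printed, held 4 E-boxes. The glucocorticoid receptor hexamer was in none of the 15 entries, and 14.8% of all 35116 promoter windows held it. The shares of all windows were 3.42% for the forkhead motif, 7.26% for the E-box and 34.6% for the CCAAT box. No base was shared by matches to different motifs in these 15 entries. A match describes the letters and no binding, and a window without a match says nothing of a site elsewhere.

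Total counts ran from 15707587 to 24796539 per library. NR3C1, which encodes the glucocorticoid receptor, averaged 18.1 to 20.4 CPM (counts scaled by library size and TMM factor) over the MM1R groups and 248 to 337 CPM over the MM1S groups. The glucocorticoid-induced FKBP5 rose 24.2-fold with Dex in MM1S (edgeR adjusted p = 1.22e-18) and had a log2 fold change of 0.016 with Dex in MM1R (adjusted p = 1). All 10 plasma cell markers found in the table were above 1 CPM in every library. T cell, myeloid, erythroid and stromal markers summed to at most 14.8 CPM per list.

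Set per kilobase of gene model, so that genes can be compared, MCL1 and BCL2L1 stood far above the other members in vehicle-treated cells. In MM1S they were at 168 ± 7.66 and 168 ± 6.80 CPM per kb (SD, n = 2), and the libraries of these genes overlapped. In MM1R BCL2L1 was at 171 ± 0.725 CPM per kb (SD, n = 2), above MCL1 at 138 CPM per kb. Below them in MM1S came BMF (46.2 CPM per kb), BCL2L11 (37.6), and then BAX and BCL2 (both 33.2, with overlapping libraries), BID (13.1), BAK1 (11.7), BBC3 (6.05) and PMAIP1 (2.53). PMAIP1 was the lowest member in all 8 groups. The order changed with treatment. In MM1R MCL1 stood above BCL2L1 with TAK-981 (236 against 191 CPM per kb) and with combo (241 against 197 CPM per kb). In MM1S MCL1 stood above BCL2L1 without overlap in every treated group. BMF overlapped BCL2L1 in Dex-treated MM1S (103 against 109 CPM per kb). It stood above BCL2L1 in the MM1S combo libraries (134 against 94.8 CPM per kb). In MM1R BMF stayed at 32.6 to 58.2 CPM per kb, below BCL2L1 in every group.

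**Figure D1:**
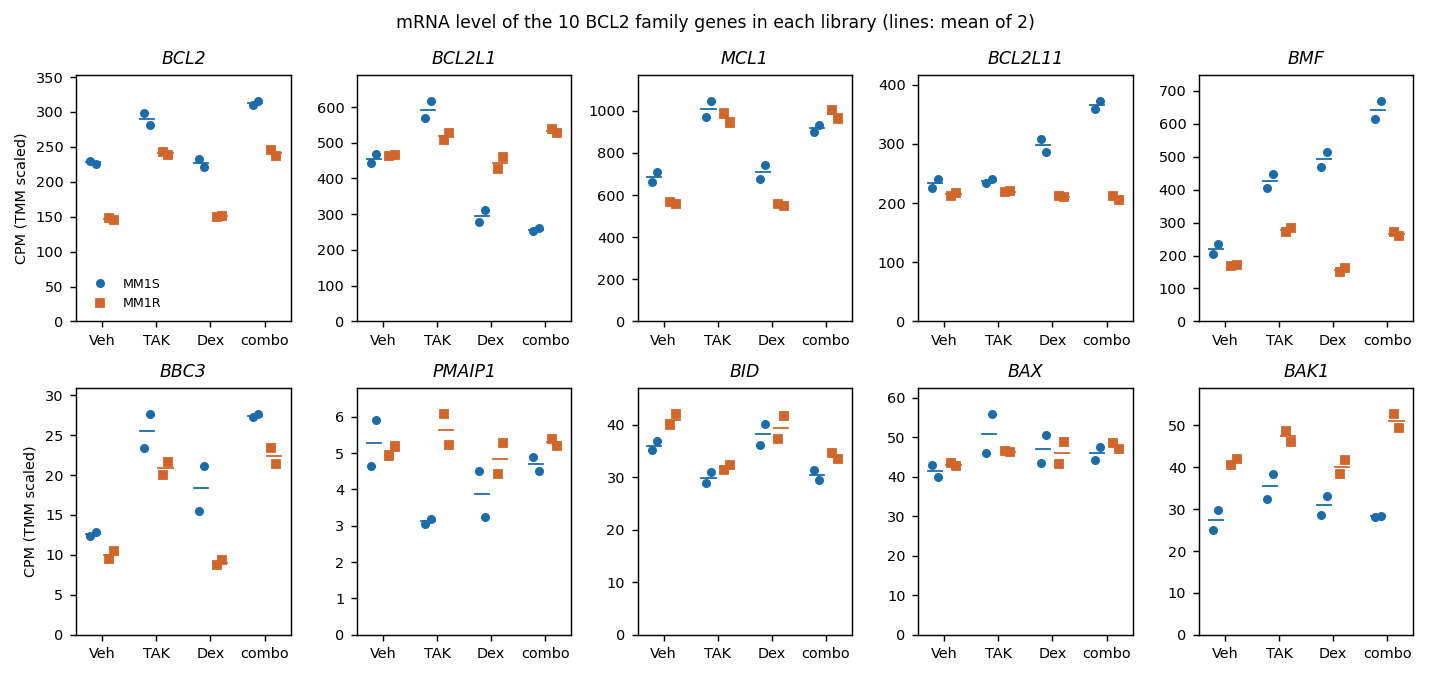
CPM (linear axes from 0) of each of the 10 genes in every library of MM1S (circles) and MM1R (squares) under vehicle (Veh), TAK-981, Dex and combo, with a line at the mean of 2. The BMF panel shows the MM1S libraries climbing from 205 and 235 CPM under vehicle to 614 and 669 CPM under combo, while the MM1R libraries stay between 150.2 and 284 CPM.

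TAK-981 raised all 3 anti-apoptotic genes in both lines. MCL1 was at 664 and 708 CPM in the vehicle libraries of MM1S and at 972 and 1046 CPM with TAK-981, a 1.47-fold rise (log2 fold change 0.56, SE 0.059, adjusted p = 3.55e-07). In MM1R it went from 567 and 559 CPM to 988 and 942 CPM, 1.71-fold (log2 fold change 0.78, SE 0.060, adjusted p = 5.46e-09). No treated MCL1 library overlapped a vehicle library in either line. Such separation is common with 2 libraries a group and adds little to a call, here and below. With Dex in MM1R, where 0 genes passed the test, the BCL2L11 libraries were separated from vehicle in this way at a log2 fold change of -0.027. How many of all genes were so separated was not counted. In bulk samples, a change in each cell and a change in the make-up of the culture cannot be told apart, and this holds for every level below. BCL2 rose from 231 and 226 CPM to 299 and 281 CPM in MM1S (1.27-fold, adjusted p = 3.43e-05) and from 148 and 145 CPM to 243 and 239 CPM in MM1R (1.64-fold, adjusted p = 4.97e-09). BCL2L1 rose from 443 and 469 CPM to 569 and 617 CPM in MM1S (1.30-fold, adjusted p = 6.8e-05). In MM1R it went from 464 and 466 CPM to 508 and 528 CPM, a 1.11-fold rise at an adjusted p of 0.0458 that missed the threshold under RLE scaling (0.0526), without the filter on low counts (0.067), with DESeq2 (0.0561) and without any 1 of its 4 libraries (0.158 and 0.14 without MM1R vehicle replicate 1 and 2, 0.0819 and 0.23 without MM1R TAK-981 replicate 1 and 2).

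Among the BH3-only genes, BMF and BBC3 rose with TAK-981 in both lines and BID fell in both, while BCL2L11 did not pass the test in either. BMF went from 205 and 235 CPM to 406 and 447 CPM in MM1S (1.94-fold, log2 fold change 0.95, SE 0.074, adjusted p = 4.71e-09) and from 168 and 170.0 CPM to 271 and 284 CPM in MM1R (1.64-fold, log2 fold change 0.72, SE 0.074, adjusted p = 2.38e-07). BBC3, a lower-abundance gene with 199 to 536 counts per library, went from 12.4 and 12.9 CPM to 23.3 and 27.6 CPM in MM1S (2.02-fold, adjusted p = 2e-06) and from 9.47 and 10.4 CPM to 20.0 and 21.7 CPM in MM1R (2.09-fold, adjusted p = 1.47e-06). These treated libraries all lay above their vehicle libraries. BID fell from 35.2 and 36.9 CPM to 28.8 and 31.0 CPM in MM1S (adjusted p = 0.0109) and from 39.9 and 42.0 CPM to 31.4 and 32.3 CPM in MM1R (adjusted p = 0.000903). PMAIP1, with 59 to 126 counts per library, fell in MM1S from 4.65 and 5.90 CPM to 3.06 and 3.19 CPM (0.595-fold, adjusted p = 0.00222), and in MM1R it was at 4.92 and 5.19 CPM against 6.07 and 5.22 CPM with TAK-981 (adjusted p = 0.436). The log2 fold change of BCL2L11 was 0.027 in MM1S (95% interval -0.091 to 0.145) and 0.031 in MM1R (-0.087 to 0.149).

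Both effectors rose in MM1S. BAX went from 43.0 and 39.9 CPM to 46.0 and 55.8 CPM (1.23-fold, adjusted p = 0.014) and BAK1 from 24.9 and 29.7 CPM to 32.4 and 38.5 CPM (1.30-fold, adjusted p = 0.00443). In MM1R neither passed: BAX was at 43.4 and 42.8 CPM against 46.4 and 46.2 CPM (adjusted p = 0.364), and BAK1 at 40.6 and 42.0 CPM against 48.7 and 46.1 CPM (adjusted p = 0.0839). The test of the difference between the lines (MM1R minus MM1S) passed for neither, at -0.19 for BAX (adjusted p = 0.414) and -0.18 for BAK1 (adjusted p = 0.471). With only the groups compared in the fit, the MM1S calls of BAX and BAK1 missed the threshold (adjusted p = 0.0926 and 0.0508) and BAK1 in MM1R passed it (0.000822). The MM1S calls also rested on single libraries: BAX was at an adjusted p of 0.118 without vehicle replicate 2 and 0.222 without TAK-981 replicate 2, BAK1 at 0.105 without vehicle replicate 1 and 0.0678 without TAK-981 replicate 2, and BID at 0.0773 without vehicle replicate 2 and 0.067 without TAK-981 replicate 1.

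Counted together, 9 of the 10 members passed with TAK-981 in MM1S, 7 higher and 2 lower, where 49% of all tested genes passed, 25.2% higher and 23.7% lower. In MM1R 6 passed, 5 higher and 1 lower, where 53.4% of all genes passed, 25.8% higher and 27.6% lower. These counts depended on the fit. With only the groups compared, 38.8% of all genes passed in MM1S and 68.2% in MM1R. BAX and BAK1 then lost their MM1S calls and BAK1 passed in MM1R, as given above. The median log2 fold change of the members was 0.36 in MM1S and 0.18 in MM1R, beside 0.037 and 0.0043 for all genes. The 2 libraries of MM1S with TAK-981, and the 2 with Dex, stood further apart than those of the other 6 groups (chi-square per degree of freedom over genes of 21.2 and 19.2, against 2.08 to 9.14). Their part in the MM1S changes was not tested, and the calls lost without 1 of these libraries are given beside each result. The test of the difference between the lines (TAK-981 effect in MM1R minus that in MM1S) passed for 2 members, where 4.16% of all genes passed: BCL2, which rose more in MM1R (difference 0.37 on the log2 scale, SE 0.077, adjusted p = 0.00923), and PMAIP1, which fell in MM1S and had no call in MM1R (difference 0.90, SE 0.24, adjusted p = 0.0419). The PMAIP1 difference missed the threshold with DESeq2 (0.0773), in a fit of the compared groups alone (0.0525) and without any 1 of 7 of the 8 libraries (0.0508 to 0.191 across all 7, MM1S TAK-981 replicate 1 being the exception). The BCL2 difference missed it without MM1S vehicle replicate 1 (0.055), MM1R vehicle replicate 2 (0.0696) or MM1R TAK-981 replicate 1 (0.0623).

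With Dex, the glucocorticoid, BMF, BCL2L11 and BBC3 rose in MM1S and BCL2L1 and PMAIP1 fell, while BCL2 and MCL1 did not pass the test. BMF went from 205 and 235 CPM under vehicle to 468 and 515 CPM, 2.23-fold (log2 fold change 1.16, SE 0.074, adjusted p = 5.11e-10). BCL2L11 went from 226 and 240.2 CPM to 308 and 287 CPM, 1.28-fold (log2 fold change 0.35, SE 0.056, adjusted p = 5.53e-05). BCL2L1 fell from 443 and 469 CPM to 279 and 312 CPM, 0.649-fold (log2 fold change -0.62, SE 0.064, adjusted p = 2.67e-07). For these 3 genes no Dex library overlapped a vehicle library, a separation that is common with 2 libraries a group.

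BBC3 went from 12.4 and 12.9 CPM to 15.5 and 21.1 CPM (1.45-fold, adjusted p = 0.00233), and the Dex libraries stood well apart from each other. Without MM1S Dex replicate 2, the higher of them, its log2 fold change fell from 0.54 to 0.29 (adjusted p = 0.0933). PMAIP1 was at 4.65 and 5.90 CPM under vehicle and at 4.51 and 3.23 CPM with Dex, a call at an adjusted p of 0.048 that missed the threshold with DESeq2 (0.126), with only the compared groups (0.0939), without vehicle replicate 2 (0.353) and without Dex replicate 2 (0.404). BCL2 was at 232 and 221 CPM and MCL1 at 674 and 742 CPM with Dex, at log2 fold changes of -0.0094 (95% interval -0.123 to 0.104) and 0.045 (-0.079 to 0.170). BID (36.2 and 40.2 CPM), BAX (43.6 and 50.6 CPM) and BAK1 (28.6 and 33.2 CPM) did not pass either, at adjusted p of 0.418, 0.129 and 0.164. In all, 5 members passed, 3 higher and 2 lower, where 42.3% of all genes passed (20.8% higher and 21.5% lower). The comparisons of TAK-981 and of Dex with vehicle share the vehicle libraries of a line, and the difference between the agents was not tested.

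In MM1R no member passed with Dex. The largest absolute log2 fold change was that of BBC3, at -0.14 (95% interval -0.432 to 0.149), with 9.47 and 10.4 CPM under vehicle and 8.70 and 9.34 CPM with Dex. BMF was at 168 and 170.0 CPM against 150.2 and 161 CPM, and the interval of its log2 fold change ran from -0.275 to 0.036. BCL2L11 was at 213 and 217 CPM against 212 and 210.3 CPM (-0.144 to 0.091), and BCL2L1 at 464 and 466 CPM against 427 and 461 CPM (-0.201 to 0.065). Among all genes, 0% passed with edgeR in this comparison, 0 also with DESeq2, and 395 were at an unadjusted p under 0.05, with 0 members among them.

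**Figure D2:**
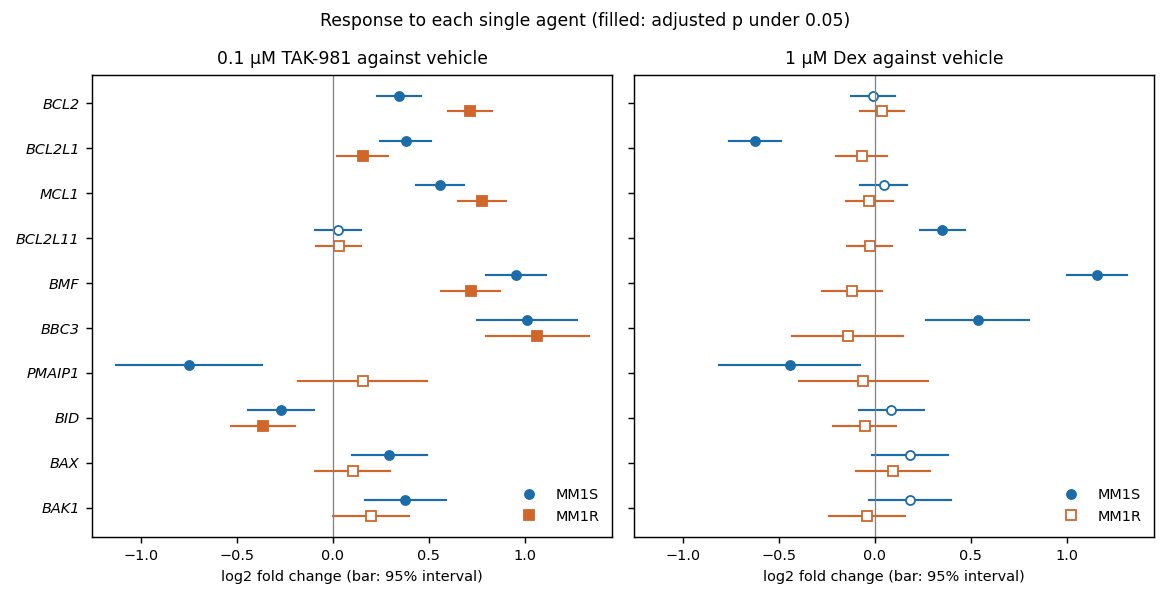
Log2 fold change of each member against vehicle (points, with 95% intervals as bars) for TAK-981 on the left and Dex on the right, in MM1S (circles) and MM1R (squares), filled where the adjusted p was under 0.05. With Dex, BMF at 1.16 and BCL2L1 at -0.62 stand clear of 0 in MM1S, and every MM1R interval spans 0.

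The difference in the Dex effect between the lines (MM1R minus MM1S) passed for 4 members, where 28.1% of all genes passed. It was -1.28 on the log2 scale for BMF (SE 0.10, adjusted p = 4.39e-08), -0.38 for BCL2L11 (SE 0.079, adjusted p = 0.00143) and 0.56 for BCL2L1 (SE 0.090, adjusted p = 0.000124). For BBC3 it was -0.68 (SE 0.19, adjusted p = 0.0113), which missed the threshold without MM1S Dex replicate 2 (-0.43, adjusted p = 0.0794) or MM1R vehicle replicate 2 (-0.61, adjusted p = 0.0581). NR3C1 was lower in every MM1R group, with the values given above, and its part in these differences was not tested.

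Given together in MM1S, the agents produced the highest BMF and BCL2L11 levels and the lowest BCL2L1 level of any group. BMF was at 614 and 669 CPM in the combo libraries, 2.91-fold over vehicle (adjusted p = 2.01e-12), 1.31-fold over Dex alone (adjusted p = 0.000276) and 0.59 above TAK-981 alone on the log2 scale (adjusted p = 3.74e-06). BCL2L11 was at 359 and 372 CPM, 1.57-fold over vehicle (adjusted p = 1.06e-08), 1.23-fold over Dex (adjusted p = 0.000269) and 1.54-fold over TAK-981 (adjusted p = 6.31e-08). BCL2L1 was at 252 and 262 CPM, 0.564-fold of vehicle (adjusted p = 2.37e-09) and 0.434-fold of TAK-981 alone (adjusted p = 5.52e-11). No combo library of these 3 genes overlapped a library of another MM1S group. Against Dex alone BCL2L1 was 0.870-fold (adjusted p = 0.0151), a call lost with only the compared groups (0.0839), without Dex replicate 2 (0.203) and without combo replicate 1 (0.0972).

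MCL1 and BCL2 stayed above vehicle in the MM1S combo libraries. MCL1 was at 899 and 934 CPM (1.34-fold of vehicle, adjusted p = 7.3e-06) and BCL2 at 310.3 and 316 CPM (1.37-fold, adjusted p = 7.61e-07). BBC3 was at 27.3 and 27.6 CPM, 2.17-fold of vehicle (adjusted p = 3.25e-07) and 0.58 above Dex alone on the log2 scale (adjusted p = 0.000622), but with no call against TAK-981 alone (adjusted p = 0.511). BID was at 31.5 and 29.5 CPM, lower than vehicle (adjusted p = 0.0162) and than Dex alone (adjusted p = 0.00307), and the call against vehicle was lost without vehicle replicate 2 (0.0979) or combo replicate 2 (0.125). PMAIP1 (4.89 and 4.51 CPM), BAX (44.3 and 47.4 CPM) and BAK1 (28.2 and 28.4 CPM) did not pass against vehicle. In MM1S 7 members passed against vehicle, 5 higher and 2 lower, where 60.3% of all genes did, and 7 against Dex, 5 higher and 2 lower, where 47.6% did.

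Against TAK-981 alone, 5 members passed in MM1S, where 35.1% of all genes did: BMF, BCL2L11 and PMAIP1 higher (14.5% of all genes were higher) and BCL2L1 and BAK1 lower (20.6% of all genes were lower). BAK1, at 32.4 and 38.5 CPM with TAK-981 alone, was 0.799-fold in the combo libraries (adjusted p = 0.0185), and PMAIP1 was 0.59 higher on the log2 scale (adjusted p = 0.0226). Both calls were fragile. BAK1 missed the threshold with only the compared groups (0.0911), without TAK-981 replicate 2 (0.191), combo replicate 1 (0.0861) or combo replicate 2 (0.0851), and PMAIP1 with DESeq2 (0.0572) and without TAK-981 replicate 1 (0.0696), TAK-981 replicate 2 (0.0531), combo replicate 1 (0.116) or combo replicate 2 (0.0565).

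Whether the combination departed from the sum of the single agents was tested as the interaction of TAK-981 and Dex on the log2 scale. In MM1S it passed for 5 members, where 14.9% of all genes passed. For BCL2L1, which TAK-981 raised and Dex lowered, the single-agent changes summed to -0.24 while the combination gave -0.83, an interaction of -0.58 (SE 0.090, adjusted p = 0.000308). For BMF, which both agents raised, the sum was 2.11 and the combination 1.54, an interaction of -0.57 (SE 0.10, adjusted p = 0.00115). For BCL2L11, which had no call with TAK-981 alone, the sum was 0.38 and the combination 0.65, an interaction of 0.27 (SE 0.079, adjusted p = 0.0285). PMAIP1 had an interaction of 1.03 (SE 0.26, adjusted p = 0.0122) and BAK1 one of -0.51 (SE 0.14, adjusted p = 0.0246).

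The interactions of BCL2L1 and BMF passed under RLE scaling, library size only, no filter, DESeq2, a fit of the compared groups alone and with any 1 library left out, though neither reached 1 in size on the log2 scale. Those of BCL2L11, PMAIP1 and BAK1 did not. BCL2L11 missed the threshold without the filter on low counts (0.0534), with only the compared groups (0.154), and without vehicle replicate 2 (0.118), Dex replicate 2 (0.128) or combo replicate 2 (0.0778). PMAIP1 missed it with only the compared groups (0.0542), and without vehicle replicate 2 (0.0645), Dex replicate 2 (0.0666) or combo replicate 1 (0.0579). BAK1 missed it with only the compared groups (0.109), and without vehicle replicate 1 (0.147), TAK-981 replicate 2 (0.0897), Dex replicate 2 (0.13), combo replicate 1 (0.0828) or combo replicate 2 (0.0661).

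**Figure D3:**
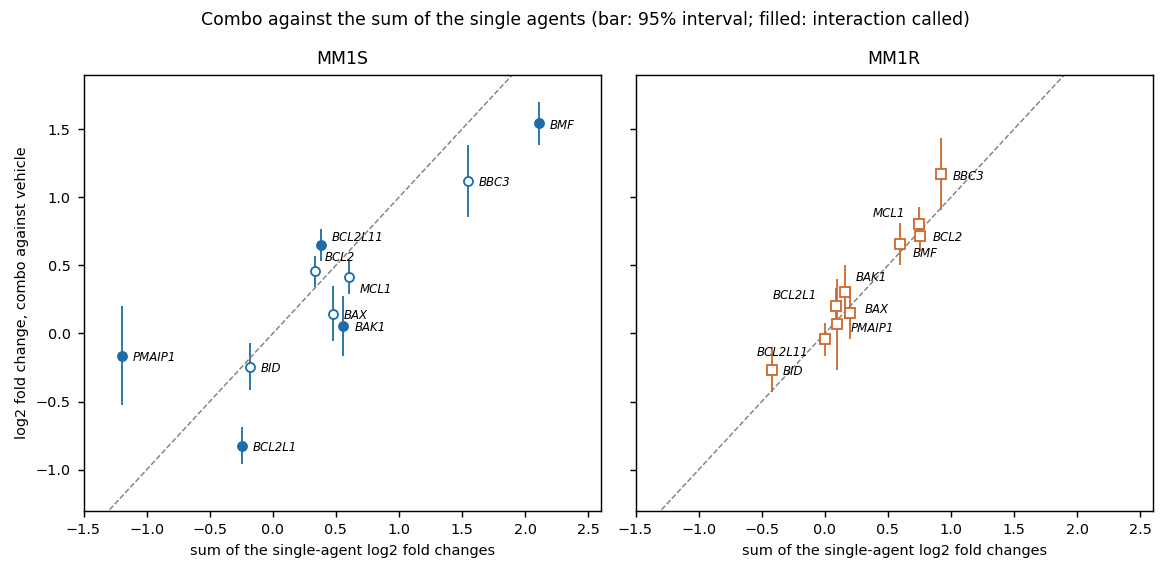
Log2 fold change of combo against vehicle (vertical axis, with 95% intervals as bars) against the sum of the TAK-981 and Dex log2 fold changes (horizontal axis) for the 10 members in MM1S and MM1R. The dashed line marks equality, and filled points had an interaction at an adjusted p under 0.05: 5 members in MM1S, of which BCL2L1 and BMF lie below the line and BCL2L11 above it, and 0 in MM1R.

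In MM1R the combination gave values close to those of TAK-981 alone. MCL1 was at 1003 and 963 CPM, BCL2 at 245 and 237 CPM, BMF at 272 and 261 CPM, and BBC3 at 23.4 and 21.3 CPM. Against vehicle 7 members passed, 6 higher and 1 lower, where 51.5% of all genes passed. The 6 were MCL1 (1.75-fold, adjusted p = 3.76e-09), BCL2 (1.64-fold, adjusted p = 5e-09), BMF (1.58-fold, adjusted p = 7.27e-07), BBC3 (2.25-fold, adjusted p = 4.19e-07), BCL2L1 (1.15-fold, adjusted p = 0.0137) and BAK1 (1.24-fold, adjusted p = 0.0109), and BID was lower (0.832-fold, adjusted p = 0.00876). The calls of the last 3 were each lost without single libraries: BCL2L1 without vehicle replicate 1 (0.0735), vehicle replicate 2 (0.0659) or combo replicate 1 (0.0847), BAK1 without vehicle replicate 1 (0.0758) or combo replicate 1 (0.0997), and BID without vehicle replicate 2 (0.0813) or combo replicate 2 (0.0643).

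Against Dex alone in MM1R, 7 members passed, again 6 higher and 1 lower, where 48.4% of all genes passed. BBC3 was 2.48-fold, MCL1 1.78-fold, BMF 1.71-fold and BCL2 1.60-fold (adjusted p from 2.65e-09 to 1.36e-07 over these 4). BCL2L1 was 0.27 higher on the log2 scale (adjusted p = 0.00195) and BAK1 1.27-fold (adjusted p = 0.00518), the latter lost without Dex replicate 1 (0.0582) or combo replicate 1 (0.0614). BID was 0.863-fold (adjusted p = 0.0337), lost with DESeq2 (0.0553) and without Dex replicate 2 (0.292), combo replicate 1 (0.0878) or combo replicate 2 (0.152). Against TAK-981 alone no member passed, nor did any other gene (0% with edgeR, 0 with DESeq2, 214 at an unadjusted p under 0.05). For BMF the 95% interval of the log2 difference ran from -0.214 to 0.093, for BCL2L11 from -0.193 to 0.043 and for BCL2L1 from -0.090 to 0.175. At an unadjusted p under 0.05 the interaction of TAK-981 and Dex held 400 genes and 0 members in MM1R, and after adjustment 0% of genes passed with edgeR and 0 with DESeq2.

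The vehicle-treated lines themselves differed in 5 members, where 48.2% of all genes differed. BCL2 was at 148 and 145 CPM in MM1R against 231 and 226 CPM in MM1S (0.642-fold, log2 difference -0.64, SE 0.054, adjusted p = 3.46e-08). MCL1 was 0.820-fold (adjusted p = 0.000679) and BMF 0.767-fold (adjusted p = 0.000337) in MM1R. BAK1 was the only member called higher in MM1R, at 40.6 and 42.0 CPM against 24.9 and 29.7 CPM (1.51-fold, adjusted p = 7.48e-05). So 1 member was higher and 4 were lower, where 25.6% of all genes were higher and 22.6% lower. The fourth lower member, BBC3 (0.788-fold, adjusted p = 0.0416), missed the threshold with DESeq2 (0.0663) and without any 1 of its 4 libraries (0.0954 and 0.163 without MM1S replicate 1 and 2, 0.207 and 0.0682 without MM1R replicate 1 and 2). BCL2L1 was at 443 and 469 CPM in MM1S and 464 and 466 CPM in MM1R, and BCL2L11 at 226 and 240.2 CPM and 213 and 217 CPM. Line and any difference in how the lines were handled cannot be told apart.

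Summed by role on the per-kilobase scale, the make-up of the family differed between the lines after Dex. The BH3-only sum was 28.5% ± 0.837 of the anti-apoptotic sum in vehicle-treated MM1S (SD, n = 2), 30.0% ± 0.352 with TAK-981, 55.7% with Dex (libraries at 56.5% and 54.8%) and 60.2% ± 0.962 with combo. In MM1R the corresponding values were 27.9% ± 0.627, 25.5% ± 0.751, 27.3% ± 0.303 and 24.3% ± 0.203. The anti-apoptotic sum itself was 369 CPM per kb in vehicle-treated MM1S, 508 with TAK-981, 315 with Dex and 365 with combo, and the combo libraries (358 and 371) overlapped the vehicle libraries (359 and 379). BCL2L1 made up 45.5% of it under vehicle, 43.0% with TAK-981, 34.5% with Dex and 26.0% with combo, and MCL1 45.5%, 48.7%, 55.0% and 61.5%. In MM1R BCL2L1 made up 51.8%, 41.3%, 51.0% and 41.6% in the same order. BMF took 43.7% of the BH3-only sum in vehicle-treated MM1S and 61.1% with combo. These sums add mRNA of genes with unlike proteins, and no test was run on them.

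**Figure D4:**
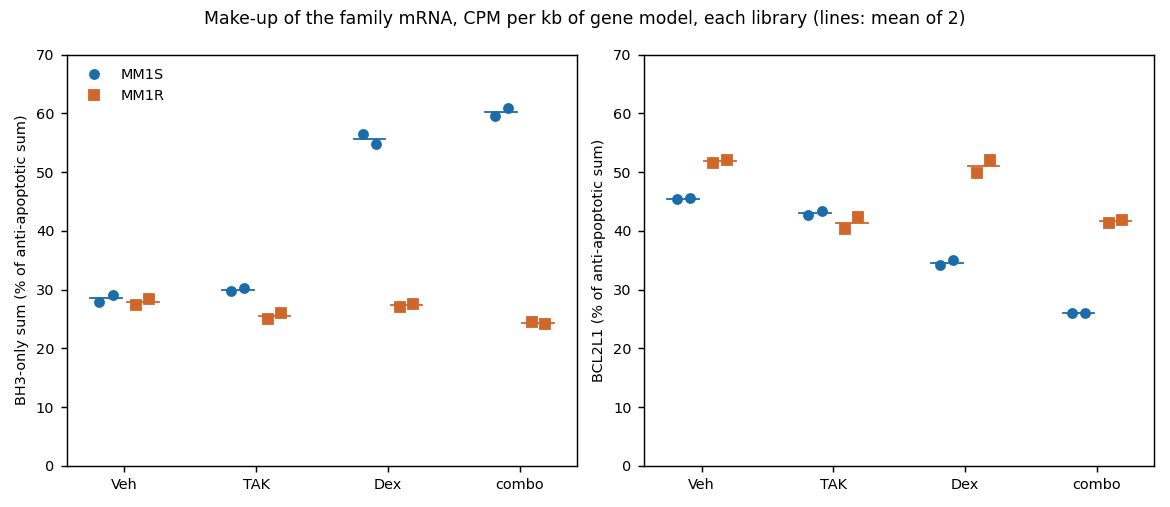
The summed level of the 5 BH3-only genes as a percent of that of the 3 anti-apoptotic genes (left) and the BCL2L1 share of the anti-apoptotic sum (right), both from CPM per kb, in each library of MM1S (circles) and MM1R (squares), with a line at the mean of 2. On the left the MM1S libraries with Dex or combo lie between 54.8% and 60.9%, and all other libraries lie between 24.2% and 30.2%.

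Values in parentheses for the genes of the next lists are log2 fold changes. The counts of each list are to be read beside the shares of all tested genes that passed. With TAK-981 these were 49% for MM1S and 53.4% for MM1R, and with Dex 42.3% for MM1S. Rises made up 25.2%, 25.8% and 20.8% of all genes in the same order, and falls 23.7%, 27.6% and 21.5%. Whether any list held more calls than other genes was not tested. Of 14 further family genes listed, 10 were tested, and BCL2L10, BCL2L14, BOK and BNIP3 were too low. With TAK-981 6 rose and none fell in MM1S, and 3 rose and 1 fell in MM1R. BCL2A1, an anti-apoptotic gene that NF-kB induces, rose in both lines at low counts, from 21 and 23 to 76 and 53 counts in MM1S (log2 fold change 1.62, adjusted p = 0.000352) and from 7 and 18 to 32 and 38 counts in MM1R (1.79, adjusted p = 0.00102). BCL2L13 rose with TAK-981 (0.32 and 0.16, adjusted p = 0.000188 and 0.0287, MM1S before MM1R) and with Dex in MM1S (0.29, adjusted p = 0.000536). BNIP3L, a mitophagy receptor, rose with TAK-981 in MM1R (0.59, adjusted p = 1.14e-05), had no call with it in MM1S (-0.11, adjusted p = 0.267) and fell with Dex in MM1S, from 109 to 52.3 CPM on average (-1.06, adjusted p = 5.66e-09). BCL2L12 fell with TAK-981 in MM1R (-0.53, adjusted p = 0.00291), against -0.21 in MM1S (adjusted p = 0.245). With Dex in MM1S 2 rose, BCL2L13 and BECN1 (0.25, adjusted p = 0.00287), and 2 fell, BNIP3L and the BH3-only gene HRK, which had 9 and 9 counts under vehicle and 1 and 1 with Dex (adjusted p = 0.00888). HRK rose with TAK-981 in MM1S, to 20 and 27 counts (adjusted p = 0.00885), and BECN1 rose there by 0.16 (adjusted p = 0.0335). For the genes of these lists the difference between the lines is not given, apart from TSC22D3 and NR3C1 below.

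Downstream of the mitochondria, the 12 apoptosome and caspase genes split in direction: 3 rose and 4 fell with TAK-981 in MM1S, 3 and 5 in MM1R, and 4 and 4 with Dex in MM1S. CYCS, which encodes cytochrome c, fell with TAK-981 (-0.59 in MM1S, -0.54 in MM1R) and with Dex in MM1S (-0.69), at adjusted p of at most 6.59e-06. CASP2 fell in all 3 comparisons (-0.75, -0.70 and -0.44 in that order). CASP6, an executioner caspase, rose with Dex in MM1S from 16.9 to 34.7 CPM (1.03, adjusted p = 1.12e-07) and fell with TAK-981 in both lines (-0.66 and -0.81, adjusted p = 8.01e-05 and 6.78e-06). CASP9, the initiator that the apoptosome activates, rose in MM1S with Dex (0.70, adjusted p = 6.24e-05) and TAK-981 (0.37, adjusted p = 0.0122), and was at 0.14 with TAK-981 in MM1R (adjusted p = 0.288). CASP10 rose with TAK-981 in both lines (0.17 and 0.46, adjusted p = 0.00627 and 3.39e-07) and with Dex in MM1S (0.23, adjusted p = 0.000956). APAF1, the apoptosome scaffold, rose with TAK-981 in MM1S (0.27, adjusted p = 0.018) and MM1R (0.69, adjusted p = 2.74e-06). PARP1, a caspase substrate, fell with it in MM1S (-0.41, adjusted p = 0.00011) and MM1R (-0.56, adjusted p = 3.84e-06).

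Of 7 tested inhibitor of apoptosis genes and their antagonists, 1 rose and 1 fell with TAK-981 in MM1S, 4 rose and 2 fell in MM1R, and 1 rose and 1 fell with Dex in MM1S. BIRC3, which encodes cIAP2, rose with TAK-981, in MM1S from 217 to 803 CPM (1.89, adjusted p = 2.85e-10) and in MM1R from 138 to 597 CPM (2.12, adjusted p = 1.18e-10). BIRC5, which encodes survivin and is expressed in dividing cells, fell with TAK-981 (-1.24 in MM1S, -0.96 in MM1R) and with Dex in MM1S (-0.97), at adjusted p of at most 1.98e-08. XIAP rose (0.28, adjusted p = 0.00377) and HTRA2 fell (-0.40, adjusted p = 0.00329) with TAK-981 in MM1R, and neither passed in MM1S (0.13 and 0.071, adjusted p = 0.165 and 0.592). BIRC6 rose with Dex in MM1S (0.17, adjusted p = 0.0467) and with TAK-981 in MM1R (0.23, adjusted p = 0.00726).

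Of 9 tested death receptor genes, 6 rose and 2 fell with TAK-981 in MM1S, 5 rose and 2 fell in MM1R, and 3 rose and 1 fell with Dex in MM1S. CFLAR, which encodes the caspase-8 inhibitor FLIP, rose in all 3 comparisons (0.80, 1.06 and 1.25 on the log2 scale, with the smallest adjusted p, 7.65e-11, under Dex). TNFRSF10B, a TRAIL receptor, rose with TAK-981 in both lines (0.69 and 0.49, adjusted p = 8.47e-08 and 5.41e-06). TNFSF10, which encodes TRAIL, rose with TAK-981 in MM1R from 7.31 to 24.8 CPM (1.76, adjusted p = 1.3e-09) and in MM1S by 0.76 (adjusted p = 2.18e-05), and fell with Dex in MM1S from 13.2 to 6.85 CPM (-0.95, adjusted p = 1.5e-05). TRADD, an adaptor of the TNF receptor, rose with Dex in MM1S (0.96, adjusted p = 1.1e-06) and with TAK-981 in both lines (0.75 and 0.60, adjusted p = 1.55e-05 and 0.00019). FAS and TNFRSF1A fell with TAK-981 in both lines (FAS -0.58 and -0.54, TNFRSF1A -0.49 and -0.64, MM1S before MM1R).

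Of 14 genes that act on the stability or place of family proteins, 2 rose and 3 fell with TAK-981 in MM1S, 1 rose and 6 fell in MM1R, and 4 rose and 3 fell with Dex in MM1S. VDAC1 and VDAC3, channels of the outer mitochondrial membrane, fell in all 3 comparisons (VDAC1 -0.49, -0.55 and -0.29, VDAC3 -0.41, -0.69 and -0.33). USP9X, a deubiquitinase known to stabilise MCL1, rose with TAK-981 in both lines (0.20 and 0.32, adjusted p = 0.0119 and 0.000222). DYNLL1, which encodes a dynein light chain, rose with TAK-981 in MM1S (0.34, adjusted p = 0.00216) and was at 0.025 in MM1R (adjusted p = 0.812). Its paralog DYNLL2, whose product is known to bind BMF, rose with Dex in MM1S (0.30, adjusted p = 0.00648) and fell with TAK-981 in MM1R (-0.41, adjusted p = 0.000336). BAG6 rose with Dex in MM1S (0.20, adjusted p = 0.00729).

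Of 19 transcription factors known to act on family genes, 7 rose and 4 fell with TAK-981 in MM1S, 8 rose and 5 fell in MM1R, and 10 rose and 4 fell with Dex in MM1S. TP73, a p53 relative that can act on BBC3, fell in all 3 comparisons (-1.59, -1.32 and -0.94), and so did E2F1 (-1.59, -1.22 and -1.13, adjusted p of at most 1.09e-06). STAT3, which can act on MCL1 and BCL2L1, rose with TAK-981 in both lines (0.55 and 0.44, adjusted p = 2.66e-07 and 3.96e-06) and with Dex in MM1S (0.38, adjusted p = 2.98e-05). DDIT3 rose with TAK-981 in both lines (0.52 and 0.50, adjusted p = 0.000738 and 0.000955). The glucocorticoid-induced TSC22D3 and KLF9 rose with Dex in MM1S (3.71 and 1.88, adjusted p = 1.38e-15 and 2.96e-12), and TSC22D3 also rose with TAK-981 in both lines (0.39 and 0.89, adjusted p = 0.0019 and 9.86e-08, MM1S before MM1R). The TAK-981 effect in MM1R minus that in MM1S was 0.50 for TSC22D3 (SE 0.13, adjusted p = 0.0284) and -0.16 for NR3C1 (adjusted p = 0.433). KLF9 rose with TAK-981 in MM1R (0.65, adjusted p = 2.67e-05) and had no call in MM1S (0.10, adjusted p = 0.365). IRF4, on which myeloma cells depend, fell with Dex in MM1S (-0.90, adjusted p = 5.91e-10) and with TAK-981 in MM1S (-0.60, adjusted p = 7.87e-08) and MM1R (-0.66, adjusted p = 3.13e-08). With Dex in MM1R none of the genes on these 6 lists passed, where 0% of all genes did.

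The genes whose levels most resembled each member were sought by Pearson r over the 8 group means of log2 CPM, among 9646 genes with a mean log2 CPM of at least 3. The 8 points share 2 lines and the same libraries, so high values are common (BMF had 820 genes over 0.9) and are a description only. BMF was most like TEPSIN and TMEM234 (r = 0.997 and 0.996), BCL2L11 like CEP350 and GGNBP2 (0.988 and 0.983), and BBC3 like ZMIZ2 and PLEKHM1 (0.996 and 0.993). BCL2 was most like ZBTB18 and UTP14C (0.997 and 0.995), MCL1 like PML and CEACAM1 (0.993 and 0.991), and BCL2L1 like POU2AF1 and RFX5 (0.987 and 0.977). BID was most like LMNB2 and ZMYND19 (0.989 and 0.988), BAK1 like EEF2KMT and GTF2E2 (0.993 and 0.987), and BAX like FUK and ATRAID (0.969 and 0.953). Within the family, MCL1 and BBC3 had the highest r (0.944) and MCL1 and BID the lowest (-0.918). BCL2L1 ran opposite to BCL2L11 (-0.884). PMAIP1 lay below the level needed for this search.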

How the data were processed

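Total RNA of MM1S and MM1R cells was sequenced after ribosomal RNA depletion, with 2 libraries in each of 8 groups of line and treatment. The authors deposited raw counts of reads per gene for 23354 genes, with hg19 positions. The submitters' processing notes name bcl2fastq 2.18.0.12, STAR 2.6.0, HTSeq 0.6.0 and edgeR 3.28.1. Whether strand was used in counting is not given in the sources used here, so reads of antisense genes could not be told apart. Samples were grouped by their labels.

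Genes passing edgeR's filterByExpr (14215) were scaled with TMM and fitted with 1 term per group over all 16 libraries (robust quasi-likelihood fit, 8 residual degrees of freedom). The 15 contrasts were tested with its F test, with Benjamini-Hochberg adjustment over all tested genes and a threshold of 0.05. SE and 95% intervals come from this fit. Values per kilobase divide CPM by the table's gene length. Log2 CPM used a prior count of 2. The procedure was tested on simulated data with the same spread in every group, so that test does not cover groups of unlike spread. Named were the 10 members in every comparison, from each list up to 2 higher and 2 lower genes with the smallest adjusted p for Dex in MM1S and TAK-981 in both lines, and the 2 genes most like each member. The overlapping neighbours and the BAX promoter were described after their values were seen. The members and lists were chosen with earlier results of these data known. Alternatives were RLE, library size only, no filter, DESeq2, a replicate block, a fit of the compared groups alone, a floor of 1 on the size of the log2 fold change, and the omission of single libraries, where a group with a lone library borrows the spread of the others. Versions were R 4.3.3, edgeR 4.0.16 and DESeq2 1.42.0.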

Additional observations from a re-analysis of the deposited data

Results flagged for a closer look

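The test of a difference between groups in the effect of a treatment passed for these members. Of all genes, 4.16% passed for TAK-981 by line, 28.1% for Dex by line and 14.9% for TAK-981 by Dex in MM1S. The BCL2L1 and BMF calls, and that of BCL2L11 for Dex by line, held in every other fit and with any 1 library omitted. The other calls were each lost in at least 1 of these settings, as given above. The TAK-981 effect in MM1R minus that in MM1S was 0.37 on the log2 scale for BCL2 (SE 0.077, adjusted p = 0.00923) and 0.90 for PMAIP1 (SE 0.24, adjusted p = 0.0419). The Dex effect in MM1R minus that in MM1S was 0.56 for BCL2L1 (adjusted p = 0.000124), -0.38 for BCL2L11 (adjusted p = 0.00143), -1.28 for BMF (adjusted p = 4.39e-08) and -0.68 for BBC3 (adjusted p = 0.0113). The effect of Dex in MM1S cells given TAK-981, minus that in cells without it, was -0.58 for BCL2L1 (adjusted p = 0.000308), 0.27 for BCL2L11 (adjusted p = 0.0285), -0.57 for BMF (adjusted p = 0.00115), 1.03 for PMAIP1 (adjusted p = 0.0122) and -0.51 for BAK1 (adjusted p = 0.0246).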

How the results depend on the processing

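Of 69 member values past the threshold, 0 changed direction in any alternative and 22 lost their call with at least 1 library left out. The counts of members called moved by over 1.5 times in these settings. With a floor of 1 on the size of the log2 fold change, fewer members were left, given here with the share of all genes left. TAK-981 left 1 in MM1S (9.93%) and 1 in MM1R (9.63%), and Dex left 1 in MM1S (7.6%). Combo against vehicle left 2 in MM1S (17.7%) and 1 in MM1R (8.93%). Combo against Dex left 0 in MM1S (9.85%) and 1 in MM1R (8.41%), and combo against TAK-981 left 1 in MM1S (6.89%). The TAK-981 by Dex interaction in MM1S left 1 (1.82%), and MM1R against MM1S under vehicle 0 (8.84%). The TAK-981 by line interaction left 0 (0.563%) and the Dex by line interaction 1 (6.46%). With only the groups compared, the TAK-981 by Dex interaction in MM1S kept 2 members (5.65% of all genes) and the TAK-981 by line interaction 1 (3.5%), and DESeq2 also gave 1 for the latter (4.28%). With 1 library left out the number called ran from 3 to 6 for Dex in MM1S, from 3 to 6 for combo against TAK-981 in MM1S, from 2 to 8 for the TAK-981 by Dex interaction in MM1S and from 0 to 4 for the TAK-981 by line interaction, with 29.6% to 38.4%, 25.2% to 36.5%, 7.17% to 25.6% and 1.37% to 15.8% of all genes called in the same order.

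Libraries of a line share only a replicate number. The deviations of same-numbered libraries from their group means correlated at r = 0.072 to 0.62 over 12 pairs of groups within a line. Between the lines they also correlated, from r = 0.057 for the vehicle groups to 0.50 for the Dex groups. The replicate number is therefore not shown to mark a pairing within a line. With a replicate block, 8 members passed for the TAK-981 by Dex interaction in MM1S (25.2% of all genes, 14.9% without the block) and 5 for the TAK-981 by line interaction (14.5%, 4.16% without it). The block lost 0 of the 69 calls and added 1 among the reported values, BAK1 with TAK-981 in MM1R (adjusted p = 0.0171). BAX with combo against vehicle in MM1R passed with only the compared groups (adjusted p = 0.0082).

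The sign of values near 0 turned. BCL2L11 with TAK-981 in MM1S was -0.022 with library size only, and ran from -0.019 to 0.069 with 1 library left out. Ranges with 1 library left out were -0.044 to 0.017 for BCL2 and -0.033 to 0.11 for MCL1 with Dex in MM1S, -0.20 to 0.062 for PMAIP1, -0.13 to 0.022 for BID and -0.10 to 0.016 for BAK1 with Dex in MM1R, and -0.070 to 0.18 for BAK1 and -0.33 to 0.011 for PMAIP1 with combo against vehicle in MM1S. PMAIP1 (59 to 126 counts) and BBC3 (199 to 536 counts) were the least deeply counted members. The cause of each loss was not tested.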
